A study of Mus musculus with 6 samples.

Results

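Type I interferon-stimulated genes were examined in RNA-seq libraries of mouse spleen T cells. The set was chosen by gene symbol and comprised 40 antiviral effectors, nucleic acid sensors and regulators of the interferon response. All 40 were present among the 55401 genes of the count table. The T cells had been enriched from spleen with CD8a beads and cultured with medium from macrophages. These macrophages had been grown from CD11b+ spleen cells with M-CSF (macrophage colony-stimulating factor, 50 ng/mL for 7 days). In the control group (n = 3), the macrophages received no further agent. In the NF-L group (n = 3), they received 5 µg/mL neurofilament light chain (NF-L), a neuronal cytoskeletal protein obtained from freeze-thawed sciatic nerve lysate, for 24 h. Filtered supernatant made up 50% of the T cell medium, which contained 2% FBS in both groups. The study's methods describe its mice as female and of the C57BL/6 and NOD-SCID strains, without tying a strain, age or sex to the spleen donors of these libraries. The labels do not state whether replicates came from separate cultures or animals, so p-values measure only the spread between these libraries, which may be technical. The dose and lysate origin of NF-L are those of the series description, whereas the study's methods give another NF-L concentration for the co-culture of macrophages with T cells and a purchased NF-L for treating mice, so the preparation used here is not settled. If it was lysate, other nerve components cannot be told apart from NF-L.

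Type I interferons (interferon alpha and beta) bind a receptor of 2 subunits, IFNAR1 and IFNAR2, which activates the kinases JAK1 and TYK2. These kinases pass the signal to the transcription factor complex ISGF3, which contains STAT2 and IRF9. ISGF3 enters the nucleus and binds the interferon-stimulated response element, a short promoter sequence, to switch on genes that block viral replication, detect foreign nucleic acid, or tune the response itself. Many of these genes also have basal expression in resting T cells.

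The libraries held 15843045 to 24639756 counts, so that 3 counts, taken as the floor of detection, corresponded to 0.122 to 0.189 CPM (read counts relative to the TMM-scaled library total). The floor, also as a bound on a count of 0, covers counting error only, whereas standard errors and SDs include the spread between libraries. The T cell label was checked against markers. Thy1 was abundant (1572 to 1707 CPM), and Cd3e (49.0 to 64.5 CPM) and Cd247 (37.7 to 47.0 CPM) were detected. Cd3g (6.0 to 8.8 CPM) and Cd3d (2.32 to 4.82 CPM) were low. Cd8a (3.20 to 4.45 CPM) and Cd8b1 (0.868 to 1.57 CPM) were below Cd4 (23.3 to 27.6 CPM), so these levels do not bear out a pure CD8+ T cell population. Cd2 and Cd5 had 0 counts in all libraries, which can also come from how reads were counted or annotated. Of 10 macrophage markers, 8 had at most 3 counts in every library, and C1qa, C1qb, C1qc, Cd14, Mrc1 and Marco had 0. The macrophage markers summed to 24.5 to 27.4 CPM in control and 19.2 to 23.4 CPM in NF-L libraries, nearly all of it Cd68. Of 6 B cell markers (12.1 to 13.2 CPM in control, 11.6 to 14.1 CPM in NF-L), Ms4a1 and Ighm were at 0, and Pax5 (8.56 to 10.6 CPM) carried most of the sum. Of 4 natural killer markers (29.6 to 32.9 CPM in control, 22.0 to 22.6 CPM in NF-L), 3 were at 0 and Klrb1c carried the sum. Of 4 plasmacytoid dendritic cell markers (2.76 to 3.39 CPM in control, 2.32 to 2.67 CPM in NF-L), Siglech was at 0. Cd3e, Cd68 and Klrb1c were lower in the NF-L libraries (adjusted p = 0.000572, 0.0494 and 2.43e-06, edgeR). Their part in the results below was not tested, and in bulk RNA fewer cells of a type and less RNA per cell cannot be told apart.

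Of the 40 genes, 33 were expressed above the filter on low counts and could be tested, and 7 (Ifnar2, Oas2, Mx1, Mx2, Cmpk2, Ifi44 and Rtp4) could not. The levels ranged widely. The mean over the 6 libraries was 100 CPM or more for 3 genes (Ly6e, Samhd1 and Bst2), 10 to 100 CPM for 17, 1 to 10 CPM for 13 and under 1 CPM for the 7 untested genes. Ly6e, a GPI-anchored surface protein of lymphocytes, accounted for 56.9% of the summed mean CPM of the set. Corrected for exon length, the mean level was 357 CPM per kb for Ly6e and 181 CPM per kb for Bst2, and the next, Trim25, a ubiquitin ligase that acts on the sensor RIG-I, was at 17.3 CPM per kb. On the same scale the mean level was 12.8 CPM per kb for Isg15 (with an exon length from another version of its annotation), 8.48 for Ifit2, 3.99 for Stat2, 3.91 for Ifit1 and 1.90 for Irf7. It was lower for Oas1a (0.673 CPM per kb), Usp18 (0.534), Oas3 (0.477) and Rsad2 (0.261).

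**Figure D1:**
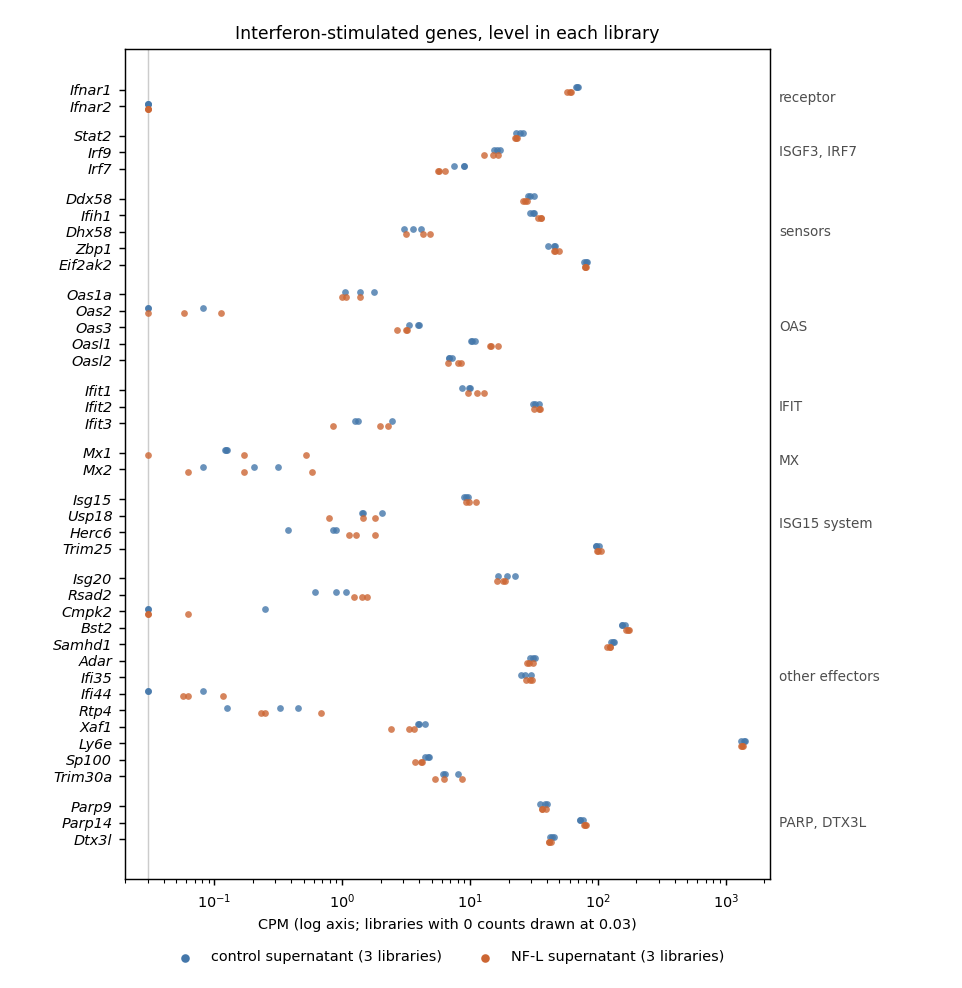
Level of each of the 40 interferon-stimulated genes in each library, in CPM on a log axis, grouped by role. Blue points are the 3 control libraries and orange points the 3 NF-L libraries, with libraries at 0 counts drawn at 0.03. The levels run from 0 counts for Ifnar2 to between 1309 and 1410 CPM for Ly6e, and for most genes the colours lie on top of each other.

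The comparison of NF-L with control asked whether supernatant of NF-L-treated macrophages changed this set in T cells. No common shift was seen. With edgeR's quasi-likelihood test and Benjamini-Hochberg adjustment over 14082 genes (adjusted p below), 4 of 33 genes (12.1%) passed the threshold of 0.05, beside 7.00% of all genes tested. At an unadjusted edgeR p under 0.05 there were 11 of the 33, beside 2711 of the 14082 genes. Oasl1 and Bst2 rose, beside 3.47% of all genes that rose, and Irf7 and Ifnar1 fell, beside 3.53% that fell. The log2 fold change was positive in 14 and negative in 19 of the 33 genes, with a median of -0.03, beside -0.001 over all genes. In 13 genes (39.4%, 6 higher and 7 lower with NF-L) every library of one group lay above every library of the other, beside 22.7% of all genes tested, and for such a gene the exact two-sided permutation test gives p = 0.1, the smallest that 3 against 3 allows. The summed level of the set was 2326 to 2434 CPM in control and 2335 to 2381 CPM in NF-L libraries. Without Ly6e it was 1002 to 1031 CPM and 1026 to 1028 CPM. Both sums overlapped between groups.

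**Figure D2:**
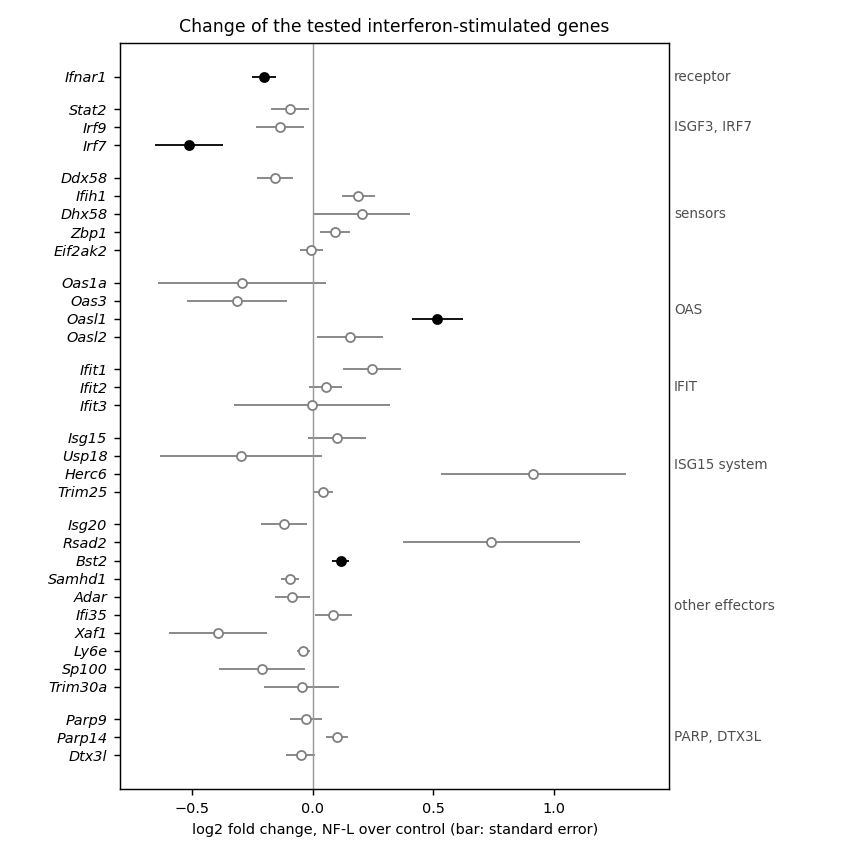
Log2 fold change (NF-L over control, 3 libraries each) of the 33 tested interferon-stimulated genes, with the standard error as a bar. Filled points passed adjusted p 0.05 and open points did not. The filled points are Oasl1 (0.52) and Bst2 (0.12) to the right and Irf7 (-0.51) and Ifnar1 (-0.20) to the left, and the wide bars belong to genes of low level such as Herc6.

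The interferon-stimulated response element was looked for as the letters GAAANNGAAA on either strand, in RefSeq promoters (GRCm38.p6, 250 bases before to 50 bases after the start of transcription). It was present in 12 of the 30 genes with a promoter listed (40.0%) and in 1079 of 27025 genes (3.99%) in all. Stat2, Ddx58, Ifih1, Eif2ak2, Oas1a, Oas3, Ifit1, Ifit3, Isg15, Rsad2, Bst2 and Trim30a held a match. Of the 4 genes that passed the test, Bst2 held it, and Irf7, Oasl1 and Ifnar1 had no such letters in this window. Among genes with a match, all 12 were tested, 5 log2 fold changes were positive and 7 negative, between -0.31 and 0.74 (median -0.004). Among the 18 without a match, 15 were tested, with values between -0.51 and 0.92 (median -0.09). The following stretches are shown because they hold the element upstream of 1 gene that rose and of 4 genes of the response that did not pass the test. They are printed 5′ to 3′ on the strand of the gene, with the matches in capitals. In Ifit1 and Stat2 the capitals are the element read on the opposite strand.
Bst2 (chr8:71537567-71537622, minus strand, 2 overlapping matches from 130 bases upstream): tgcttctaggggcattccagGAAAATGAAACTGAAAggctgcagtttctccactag
Isg15 (chr4:156200855-156200916, minus strand, 3 overlapping matches from 78 bases upstream): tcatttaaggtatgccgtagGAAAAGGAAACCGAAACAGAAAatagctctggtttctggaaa
Ifit1 (chr19:34640765-34640833, plus strand, 2 matches from 104 bases upstream): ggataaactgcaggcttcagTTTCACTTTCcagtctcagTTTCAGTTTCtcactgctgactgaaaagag
Stat2 (chr10:128270256-128270305, plus strand, 1 match from 222 bases upstream): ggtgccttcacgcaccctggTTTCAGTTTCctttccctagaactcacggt
Oas3 (chr5:120777705-120777754, minus strand, 1 match from 75 bases upstream): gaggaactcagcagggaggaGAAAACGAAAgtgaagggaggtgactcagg
More than 1 match in a promoter was also found for Oas1a and Ifit3, and Trim30a held 1 match in each of its 2 listed promoters. None of these genes passed the test.

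The receptor subunits differed sharply in their counts. Ifnar1 (chr16:91485238-91507441, plus strand, GRCm38) encodes the subunit that carries TYK2. It measured 69.7, 68.7 and 67.8 CPM in control and 61.3, 60.8 and 57.1 CPM in NF-L libraries. Every NF-L library was below every control library. Ifnar1 fell to 0.869 of control, a log2 fold change of -0.20 (SE 0.05, adjusted p = 0.00692). The call was lost without control replicate 1 (adjusted p = 0.051) and without NF-L replicate 3 (adjusted p = 0.101), with the same direction. Ifnar2 (chr16:91372783-91405589, plus strand), which encodes the subunit that carries JAK1, had 0 counts in all 6 libraries, which allows at most 3 counts in each. Ifnar2 shares 315 exon bases (9.5% of its exon length) with the overlapping gene Gm21970, also at 0 counts. The neighbouring receptor gene Il10rb, looked up after these values were seen, had 1 count in all libraries together. How reads on overlapping genes were counted is not given in the sources used here, so a count of 0 for Ifnar2 does not show that the transcript was absent.

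Of the transcription factors of the response, Irf7 changed, and Stat2 and Irf9 did not pass the test. Irf7 (chr7:141262706-141266481, minus strand) encodes the factor that amplifies interferon alpha production. It measured 7.47, 8.96 and 8.91 CPM in control and 5.58, 6.38 and 5.71 CPM in NF-L libraries. The groups did not overlap, and control replicate 1 was the lowest of its group. Irf7 fell to 0.701 of control, a log2 fold change of -0.51 (SE 0.14, adjusted p = 0.0154). The call was lost without control replicate 3 (adjusted p = 0.0726), NF-L replicate 1 (0.0679) or NF-L replicate 3 (0.0892), while the log2 fold change stayed between -0.60 and -0.47. Irf7 shares 45 exon bases with the antisense gene Phrf1, and whether strand was used in counting is not given. Stat2 measured 24.3, 22.7 and 26.0 CPM in control and 22.3, 22.9 and 23.5 CPM in NF-L libraries (log2 fold change -0.09, SE 0.08, adjusted p = 0.588). Irf9, the DNA-binding subunit of ISGF3, measured 15.5, 16.2 and 17.2 CPM against 16.5, 15.2 and 12.8 CPM (log2 fold change -0.14, SE 0.10, adjusted p = 0.512). For both genes the groups overlapped, and Irf9 shares 123 exon bases with Rnf31 on the same strand.

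The 5 sensors of nucleic acid were all expressed, and 0 passed with edgeR, DESeq2 or limma-voom, beside 7.00% of all genes with edgeR. At an unadjusted edgeR p under 0.05 there were 2, beside 2711 of the 14082 genes tested. Ifih1, which encodes MDA5, a sensor of long double-stranded RNA, measured 31.5, 29.6 and 30.9 CPM in control and 33.7, 35.7 and 35.7 CPM in NF-L libraries, without overlap (log2 fold change 0.19, adjusted p = 0.086). Ddx58, which encodes RIG-I, the sensor of uncapped RNA ends, measured 31.7, 28.3 and 29.6 CPM against 27.8, 26.9 and 26.0 CPM, also without overlap (log2 fold change -0.16, adjusted p = 0.224). These 2 related helicases, with nearly equal mean levels per length (4.03 CPM per kb for each), therefore had point values on opposite sides of 0, and the difference between them was not tested. The groups overlapped for Dhx58, Zbp1 and Eif2ak2, with log2 fold changes of 0.20, 0.09 and -0.01. Eif2ak2, which encodes the kinase PKR, was the best expressed of the sensors per length (15.6 CPM per kb).

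In the OAS family, whose enzymes make the second messenger that activates RNase L, Oasl1 stood out. Oasl1 (chr5:114923240-114937915, plus strand) encodes an OAS-like protein without synthetase activity that is known to restrain translation of Irf7 mRNA. It measured 11.0, 10.2 and 10.4 CPM in control and 14.2, 14.6 and 16.4 CPM in NF-L libraries. The lowest NF-L library was above the highest control library. Oasl1 rose 1.43-fold (log2 fold change 0.52, SE 0.11, adjusted p = 0.000715), and it passed the threshold in all 14 alternative settings, with a highest adjusted p of 0.0244. The neighbouring paralog Oasl2 (chr5:114896936-114912234) measured 6.86, 7.21 and 6.87 CPM against 8.44, 6.73 and 8.09 CPM (log2 fold change 0.15, adjusted p = 0.612). Oas3 measured 3.94, 3.95 and 3.35 CPM against 3.16, 3.19 and 2.66 CPM, without overlap (log2 fold change -0.31, adjusted p = 0.451). Oas1a, at 1.06, 1.38 and 1.76 CPM against 1.37, 0.987 and 1.08 CPM, overlapped (log2 fold change -0.29, SE 0.35, adjusted p = 0.725). Oas2 had at most 2 counts in any library. Counts of the OAS, IFIT, MX, TRIM30 and SP100 families are uncertain to the extent that reads shared by near-identical copies were split between them, which is not given.

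The IFIT genes encode proteins that bind viral RNA and hold back its translation. With edgeR, DESeq2 or limma-voom 0 of the 3 passed, beside 7.00% of all genes with edgeR. At an unadjusted edgeR p under 0.05 there was 1, beside 2711 of the 14082 genes tested. Ifit1 measured 9.86, 8.65 and 9.93 CPM in control and 9.61, 11.4 and 12.9 CPM in NF-L libraries (log2 fold change 0.25, SE 0.12, adjusted p = 0.248). NF-L replicate 1 lay inside the control range. Ifit2, the best expressed, was at 31.0 to 34.5 CPM in control and 31.8 to 35.3 CPM in NF-L libraries (log2 fold change 0.05). Ifit3 measured 1.26, 1.32 and 2.45 CPM against 2.30, 1.97 and 0.848 CPM (log2 fold change -0.0035, SE 0.33, adjusted p = 0.997), a spread too wide to show a moderate change. The dynamin-like GTPases were near the floor. Mx1 had 3, 2 and 3 counts in control and 0, 9 and 3 counts in NF-L libraries, and Mx2, annotated as a polymorphic pseudogene, had 5, 5 and 2 counts against 1, 10 and 3 counts. NF-L replicate 2 was the highest library for both.

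Isg15 encodes a ubiquitin-like protein that is attached to other proteins during the response. It measured 9.25, 9.02 and 9.69 CPM in control and 9.74, 11.1 and 9.22 CPM in NF-L libraries (log2 fold change 0.10, SE 0.12, adjusted p = 0.731). Usp18, which encodes the protease that removes ISG15 and dampens receptor signalling, measured 2.03, 1.44 and 1.43 CPM against 1.80, 1.45 and 0.792 CPM (log2 fold change -0.30, SE 0.34, adjusted p = 0.71). Herc6, the mouse ligase for ISG15, had 21, 6 and 22 counts in control and 29, 22 and 20 counts in NF-L libraries. In CPM its groups did not overlap (0.852, 0.376 and 0.899 against 1.80, 1.28 and 1.13), and the fitted log2 fold change of 0.92 (SE 0.39, adjusted p = 0.158) was the highest in the set but did not pass. Trim25 was at 96.1 to 101 CPM in control and 97.4 to 106 CPM in NF-L libraries, with overlap.

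Among the other effectors, Bst2 (chr8:71534255-71537456, minus strand) encodes tetherin, which holds budding virus at the cell surface. It measured 154.7, 153.8 and 161.6 CPM in control and 164.9, 171.2 and 173.5 CPM in NF-L libraries. The groups were separate by a narrow margin. Bst2 rose 1.08-fold (log2 fold change 0.12, SE 0.04, adjusted p = 0.0358). This was the least stable of the 4 calls. The adjusted p was 0.135 without control replicate 1, 0.0732 without control replicate 2, 0.122 without NF-L replicate 2 and 0.201 without NF-L replicate 3, always with the same direction, and it also missed the threshold with the DESeq2 Wald test (0.0835) and with library size alone (0.0769), with no filter (0.0613) or with thinned counts (0.0524). Rsad2, which encodes the antiviral enzyme viperin, measured 0.893, 1.07 and 0.613 CPM against 1.24, 1.57 and 1.41 CPM, without overlap but at only 15 to 27 counts per library (log2 fold change 0.74, SE 0.37, adjusted p = 0.258).

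Samhd1, which encodes a hydrolase of deoxynucleotides, was at 127 to 133 CPM in control and 118 to 125 CPM in NF-L libraries (log2 fold change -0.09, adjusted p = 0.145). Its groups did not overlap, and the same held for the apoptosis factor gene Xaf1 (3.92 to 4.42 against 2.42 to 3.62 CPM, log2 fold change -0.39, adjusted p = 0.28) and the nuclear body gene Sp100 (4.46 to 4.74 against 3.73 to 4.18 CPM, log2 fold change -0.21, adjusted p = 0.588). None of these 3 passed the test. Ly6e, by far the most abundant gene of the set, was at 1324 to 1410 CPM in control and 1309 to 1353 CPM in NF-L libraries, with overlap (log2 fold change -0.04, SE 0.03, adjusted p = 0.47). Groups overlapped for Isg20, Adar, Ifi35 and Trim30a as well, with log2 fold changes between -0.12 and 0.09. Adar shares 16.8% of its exon bases with the antisense gene Chrnb2. Cmpk2 and Ifi44 had at most 4 counts in any library, and Rtp4 had 2 to 12 counts.

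The PARP9-DTX3L pair, a ubiquitin ligase complex, and Parp14, an ADP-ribosyltransferase, lie next to each other on chromosome 16. Parp14 measured 76.3, 72.6 and 71.9 CPM in control and 78.6, 80.0 and 78.4 CPM in NF-L libraries, without overlap (log2 fold change 0.10, adjusted p = 0.219). Parp9 and Dtx3l overlapped between groups (log2 fold changes -0.03 and -0.05). These 2 genes share 458 exon bases on opposite strands, so their counts may not be independent.

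**Figure D3:**
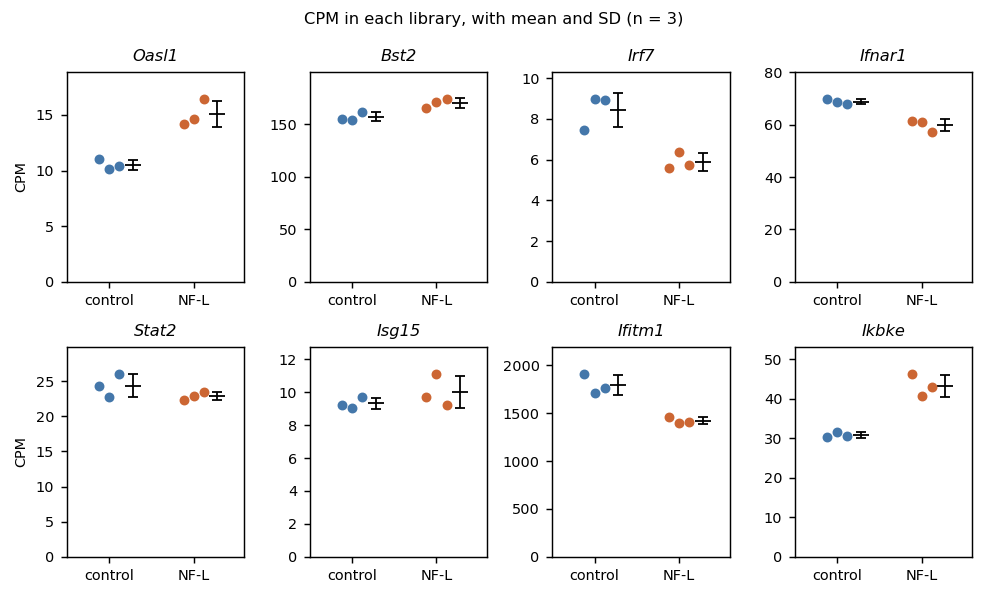
CPM in each library, with the mean and SD (n = 3) beside the points, for the 4 interferon-stimulated genes that passed the test (Oasl1, Bst2, Irf7 and Ifnar1), for Stat2 and Isg15, and for Ifitm1 and Ikbke of the wider pathway. All axes start at 0. Oasl1 and Ikbke sit clearly higher with NF-L, Irf7 and Ifitm1 clearly lower, the steps of Bst2 and Ifnar1 are small against their level, and Stat2 and Isg15 overlap.

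The wider pathway was read from lists of other genes, written by function with earlier results of these data known. Most interferon genes were at or near the floor. Of 20 interferon genes, 12 had at most 3 counts in every library, and 2 (Ifna4 and Ifna13) could be tested, neither passing. Ifna13, the best detected, was at 2.19 to 3.77 CPM in control and 2.98 to 3.72 CPM in NF-L libraries (log2 fold change 0.10, adjusted p = 0.862). Ifnb1 had 4, 1 and 3 counts in control and 7, 9 and 5 counts in NF-L libraries, too few for the test. In the signalling list, 0 of 8 tested genes passed with edgeR or DESeq2, beside 7.00% of all genes with edgeR, and 1, Jak1, passed with limma-voom. At an unadjusted edgeR p under 0.05 there were 2 of the 8, beside 2711 of the 14082 genes tested. Jak1 was at 458 to 489 CPM in control and 438 to 457 CPM in NF-L libraries, without overlap (log2 fold change -0.09, SE 0.03, adjusted p = 0.0702). Tyk2 and Irf1 had log2 fold changes of 0.02 and 0.03 (adjusted p = 0.899 and 0.859). Among negative regulators, 0 of 6 passed with edgeR, DESeq2 or limma-voom. At an unadjusted edgeR p under 0.05 there were 0, beside the same share of all genes. Socs1 and Socs3, genes of feedback inhibitors of JAK kinases, had log2 fold changes of -0.03 and -0.04 (adjusted p = 0.85 and 0.86).

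Of the 7 tested genes that lead to interferon induction, 1 passed (14.3%, beside 7.00% of all genes). Ikbke encodes IKK-epsilon, a kinase that activates IRF3 and IRF7 and is also a member of the IKK family of NF-κB signalling. It measured 30.4, 31.6 and 30.5 CPM in control and 46.2, 40.7 and 42.8 CPM in NF-L libraries, well apart. Ikbke rose 1.40-fold (log2 fold change 0.49, SE 0.07, adjusted p = 3.64e-07) and passed in every setting tried. Its partner Tbk1, looked up after the values were seen, had a log2 fold change of 0.06 (adjusted p = 0.577).

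Among 49 further interferon-stimulated genes, 31 were tested, 7 fell and 0 rose (22.6% passed, beside 7.00% of all genes), and 25 of the 31 log2 fold changes were negative, with a median of -0.09. Because this list was written with earlier results known, its share and direction are descriptions, and the list as a whole was not tested. DESeq2 called 6 lower and limma-voom 7. No tested gene of this list rose with DESeq2 or limma-voom either, or at an unadjusted p under 0.05. The IFITM genes, which encode small membrane proteins that block viral entry, led this group. Ifitm1 measured 1907, 1708 and 1765 CPM in control and 1462, 1398 and 1410 CPM in NF-L libraries, a fall to 0.793 of control (log2 fold change -0.33, SE 0.03, adjusted p = 5.27e-13). Ifitm2 fell to 0.863 of control (152.2 ± 7.87 to 131.6 ± 3.22 CPM, SD, n = 3, adjusted p = 0.000124) and Ifitm3 to 0.888 of control (595 ± 24.6 to 529 ± 24.0 CPM, adjusted p = 0.000119). All 3 passed in every setting tried, although reads shared between these close paralogs could not be followed, and Ifitm2 shares 40.9% of its exon bases with Gm45717 (0 counts).

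The other 4 that fell were Lgals9 (log2 fold change -0.58, adjusted p = 0.0225) and Lgals3bp (-0.13, 0.0105), which encode a galectin and a galectin-binding glycoprotein, Epsti1 (-0.25, 0.0106) and the large ubiquitin ligase gene Rnf213 (-0.13, 0.00446). Each of these 4 lost its call when 1 library was left out. Lgals9 also missed the threshold with the DESeq2 Wald test (adjusted p = 0.0744). The highest adjusted p was 0.16 for Lgals9 without NF-L replicate 2, 0.178 for Epsti1 and 0.0934 for Lgals3bp without NF-L replicate 1, and 0.0661 for Rnf213 without NF-L replicate 3. Of 16 tested genes best known as interferon gamma targets, 1 passed (6.25%), a share near that of all genes (7.00%). This gene, Tgtp2, an immunity-related GTPase gene, fell (8.20 ± 0.73 to 5.34 ± 0.86 CPM, SD, n = 3, log2 fold change -0.61, adjusted p = 0.00505). None rose with edgeR, DESeq2 or limma-voom (1 at an unadjusted p under 0.05). Its near-identical paralog Tgtp1 had a log2 fold change of -0.05 (adjusted p = 0.934), so how reads were split between them bears on both values, and the Tgtp2 call was lost without NF-L replicate 1 (adjusted p = 0.0501).

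**Figure D4:**
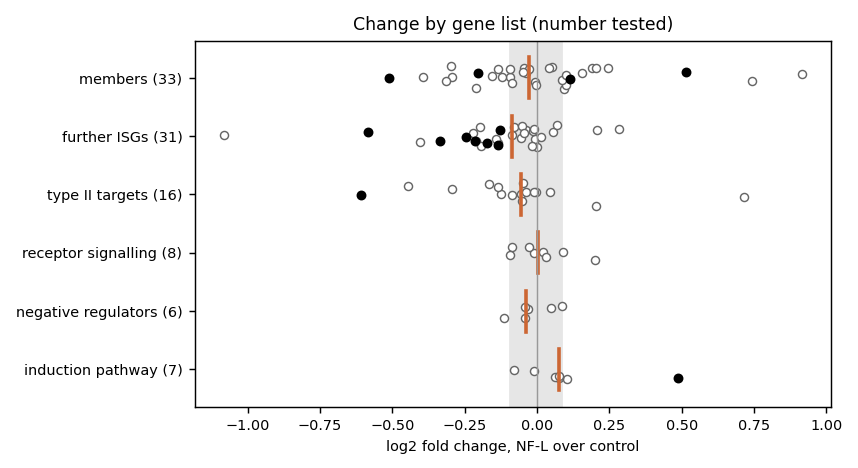
Log2 fold change (NF-L over control) of every tested gene of the lists shown, with the number tested in brackets. The 2 tested interferon genes, Ifna4 and Ifna13, are not drawn. Filled points passed adjusted p 0.05, the orange line is the list's median, and the grey band spans the lower to the upper quartile of all 14082 genes (-0.09 to 0.09), with their median as a line. The members spread to both sides with 2 filled points on each, whereas all 7 filled points of the further interferon-stimulated genes lie to the left. Members and lists were chosen with earlier results of these data known.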

How the data were processed

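RNA-seq libraries of T cells (3 control, 3 NF-L) were poly(A)-selected and sequenced on an Illumina instrument. The authors deposited raw read counts per gene for 55401 gene identifiers, without normalization or pooling, and 0 columns lacked a sample. Aligner, counter and strand setting are not given in the sources used here. The submitters' processing notes name GRCm39, R 4.2.1 and limma 3.54.2. However, 54349 identifiers were identical in version to GENCODE M21 (GRCm38), from which gene coordinates and exon lengths were taken. The versions were identical for 38 of 40 members, not Mx1 and Isg15, for which gene coordinates are not given. Promoter stretches carry the coordinates of the RefSeq promoters. The study's methods state no test for this experiment.

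Counts were analysed in R 4.3.3 with edgeR 4.0.16: filterByExpr (minimum count 10, total 15), TMM, glmQLFit and glmQLFTest, Benjamini-Hochberg adjustment over 14082 genes, threshold 0.05. CPM used TMM-scaled library totals. Standard errors of log2 fold changes were derived as the absolute log2 fold change divided by the square root of the quasi-likelihood F statistic. Procedures were tested on simulated data. Alternatives were DESeq2 1.42.0 size factors and Wald test, library size alone, 2 other filters, thinned counts, limma-voom (limma 3.58.1), a replicate block, other thresholds and leaving out each library. Figures were drawn with matplotlib 3.10.9.

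Replicate numbers showed no clear pairing: deviations of same-numbered libraries correlated at 0.0115, 0.0148 and 0.00742, beside -0.016 to 0.00332 for differently numbered ones. The same-numbered values were the highest, though all values were small.

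Members and lists were chosen with earlier results of these data known. Genes named were every member past the threshold, members fixed by name (the receptor subunits, Stat2, Irf9, Irf7, Isg15, Ifit1, Ifit3, Mx1, Rsad2, Oas1a, Usp18 and Bst2), members whose groups did not overlap, every list gene past the threshold and Irf1, Jak1, Tyk2, Ifnb1, Socs1 and Socs3. A further gene under this rule is not reported here. Other members are given by ranges, log2 fold changes and counts, except Oasl2 and Mx2, which are given by library beside their paralogs. Oasl2 was chosen after its values were seen. Of the lists, Ifna4, Ifna13, Tbk1 and Tgtp1 were also named outside this rule. No pair of libraries agreed within sampling noise (chi-square per degree of freedom 1.88 or more).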

Additional observations from a re-analysis of the deposited data

How the results depend on the processing

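The 4 calls among the 33 tested members kept their direction in every alternative tried. All 4 passed with DESeq2 size factors, a minimum of 10 counts in each library (32 members tested), limma-voom and the replicate block, which also left 1049 genes called over all and changed no call among the members. The replicate numbers showed no clear pairing of the libraries, so the block is only an alternative. The members that rose numbered 1 in place of 2 with library size alone, with no filter (39 members tested), with counts thinned to the smallest library and with the DESeq2 Wald test. Bst2 was the one lost each time (adjusted p = 0.0769, 0.0613, 0.0524 and 0.0835). At a threshold of 0.01, 2 members passed, but the share of all genes at that threshold was not taken, so this count has no background beside it. Leaving out each library in turn gave 1 to 3 members past the threshold, 1 to 2 higher and 0 to 2 lower. Over all genes these fits called 508 to 966 of 14386 to 14592 genes tested. Only Oasl1 passed without NF-L replicate 3. The median log2 fold change of the members stayed between -0.05 and -0.002. Over all genes, 986 passed in the fit reported, 651 with DESeq2, 616 without NF-L replicate 2 and 508 without NF-L replicate 3. With library size alone the split over all genes was 372 higher and 600 lower, in place of 489 and 497, and the median of all genes moved to -0.01. The causes were not tested. Members near 1 CPM, such as Herc6, Rsad2, Usp18 and Ifit3, had standard errors of 0.33 to 0.39 on the log2 scale, which could hide moderate changes.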
